A study of Homo sapiens with 54 samples.

Results

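Human neurons resembling medium spiny neurons (hMSN-like cells) that had received 3 daily doses of 1 mM dopamine were compared with cells that had received the ascorbic acid vehicle. The members were the 3 libraries labelled 3 Day (1 mM dopamine on each of 3 days) and the 3 libraries labelled AA vehicle, chosen by their labels, or 6 of the 53 libraries of the series whose files were used here. The cells were neurons differentiated with activin A from H9 (WA09), a line of human embryonic stem cells, so that every library came from a single cell line. Neither group carried an engineered allele, and ascorbic acid, an antioxidant that slows the oxidation of dopamine in medium, was given in both. RNA of the 3 Day group was taken 1 h after the last dose, and all groups of the time course were timed so that RNA was taken on the same day of culture. The time course followed how gene expression moved over days of repeated dopamine, and its other groups were 2 Day, 4 Day and 5 Day (3, 3 and 2 libraries here). Replicate libraries bore numbers, but the labels did not say whether they came from separate differentiations, so that the p-values below measure only the spread between these samples, which may be technical.

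Medium spiny neurons are the GABAergic projection neurons of the striatum, where dopamine acts on D1-type receptors, which raise cyclic AMP, and on D2-type receptors, which lower it. Downstream kinases switch on immediate early genes within minutes to hours, among them the transcription factors FOS, FOSB and EGR1, and the feedback phosphatases and Sprouty proteins that limit the ERK cascade follow. Serum response factor (SRF) binds CArG boxes and drives actin and contractile genes. The study also named SRF among the predicted upstream regulators of its desensitized genes, which included immediate early genes. The coactivator YAP with TEAD factors drives CCN1, CCN2 and ANKRD1.

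Promoters are shown for the 3 immediate early genes with the largest fold change of those past the test with total gene reads and with exon reads that had an entry in the RefSeq promoter table, since they stood on different sides of the library pattern described below. CCN1, which ranked between them, is named only. The sequences are the 250 bases before the RefSeq start (build GRCh38.p14), 5′ to 3′ on the gene's strand. Capitals mark CArG boxes and GGAATG, the core letters of the TEAD motif, on either strand.
EGR1 (chr5:138465229-138465478, + strand): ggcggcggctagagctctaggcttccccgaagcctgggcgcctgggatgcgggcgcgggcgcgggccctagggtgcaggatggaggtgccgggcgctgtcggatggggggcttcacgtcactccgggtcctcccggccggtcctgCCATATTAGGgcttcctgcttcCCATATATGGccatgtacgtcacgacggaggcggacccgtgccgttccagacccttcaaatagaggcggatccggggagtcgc
EGR2 (chr10:62819168-62819417, - strand): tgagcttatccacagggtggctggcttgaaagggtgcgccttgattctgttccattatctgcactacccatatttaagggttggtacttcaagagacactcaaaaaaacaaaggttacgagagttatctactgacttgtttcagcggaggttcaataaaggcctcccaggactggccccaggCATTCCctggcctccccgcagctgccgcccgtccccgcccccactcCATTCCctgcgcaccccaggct
CCN2 (chr6:131951373-131951622, - strand): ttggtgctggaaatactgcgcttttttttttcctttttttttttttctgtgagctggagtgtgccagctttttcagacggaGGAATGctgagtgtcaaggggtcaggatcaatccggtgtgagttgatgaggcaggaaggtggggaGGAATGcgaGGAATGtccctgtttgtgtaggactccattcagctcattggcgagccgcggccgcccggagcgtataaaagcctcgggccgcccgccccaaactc
In these windows EGR1 held 2 CArG boxes, starting 105 and 83 bases before the start, CCN2 held 3 GGAATG matches and EGR2 held 2. Of 34796 promoters of the same length, 1.17% held a CArG box, 11.9% GGAATG, 1.64% the cyclic AMP response element TGACGTCA and 6.59% the AP-1 site TGANTCA, all counted on both strands, with no overlap between the 2 motifs in capitals. Of the 23 immediate early genes higher in both kinds of reads, 17 had a promoter sequence, and 1 held a CArG box (EGR1), 3 GGAATG (CCN2, EGR2 and ZFP36), 1 TGACGTCA (MAFF) and 0 TGANTCA. The motifs were chosen after values of these genes had been seen, and a match is only a match of letters.

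Libraries held 13238441 to 15016232 reads on genes in the 3 Day group and 14747364 to 16013901 in the vehicle. Reads in introns made 14.3% to 17.1% of them against 14.7% to 15.8%. Reads on 4 ribosomal RNA-like genes made 2.25% to 2.78% in 3 Day and 1.07% to 1.38% in the vehicle, with no overlap, and mitochondrial reads 8.04% to 8.87% against 7.02% to 8.26%. Replicate 1 of 3 Day stood somewhat apart, with the highest intron share and 20918 genes at 10 or more reads, against 18497 and 19202 in the other 3 Day libraries. The part of these differences in the results was not tested. Pan-neuronal markers such as MAP2, TUBB3 and STMN2 were abundant in both groups (14 genes, 5069 to 6350 TPM in 3 Day and 5569 to 5975 in the vehicle), where TPM is a level scaled to exon length and to the library total, computed by the authors from exon reads. Striatal markers were present at low levels, as described below, and markers of microglia were near 0 (6 of 7 under 1 TPM in both groups). Choroid plexus and epithelial markers summed to 666.5 to 1313 TPM against 1675 to 2491, most of it from TTR (444, 591 and 989 against 2249, 1965 and 1427), while the median log2 fold change of the 10 markers was 0.26.

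Cells given 3 doses of dopamine differed from the vehicle in 1074 of 21690 genes tested (4.95%) with total gene reads, which add exon and intron reads, and in 1236 of 16768 (7.37%) with exon reads. The test was edgeR's quasi-likelihood test with an adjusted p under 0.05 (Benjamini-Hochberg). With total gene reads 541 genes were higher (2.49%) and 533 lower (2.46%), and with exon reads 800 (4.77%) and 436 (2.60%). For comparison, the libraries of the 2 groups did not overlap in 29.3% of all genes tested with total gene reads and in 29.5% with exon reads. Both kinds of reads shared 761 genes, all in the same direction, which is 70.9% of the calls with total gene reads and 61.6% of those with exon reads. Of the 313 genes called with total gene reads alone, 250 were lower, and 74 were lncRNAs. Of the 475 called with exon reads alone, 322 were higher. The counts rested on single libraries. They were 1527 (total) and 1713 (exon) without 3 Day replicate 1, 219 and 391 without replicate 2, and 308 and 557 without replicate 3. They were 167 and 370 without vehicle replicate 1, 172 and 468 without vehicle replicate 2, and 632 and 934 without vehicle replicate 3. With 5 Day reduced to a single library, the counts were 2233 and 1705 (without 5 Day replicate 2) or 2260 and 1686 (without replicate 3).

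**Figure D1:**
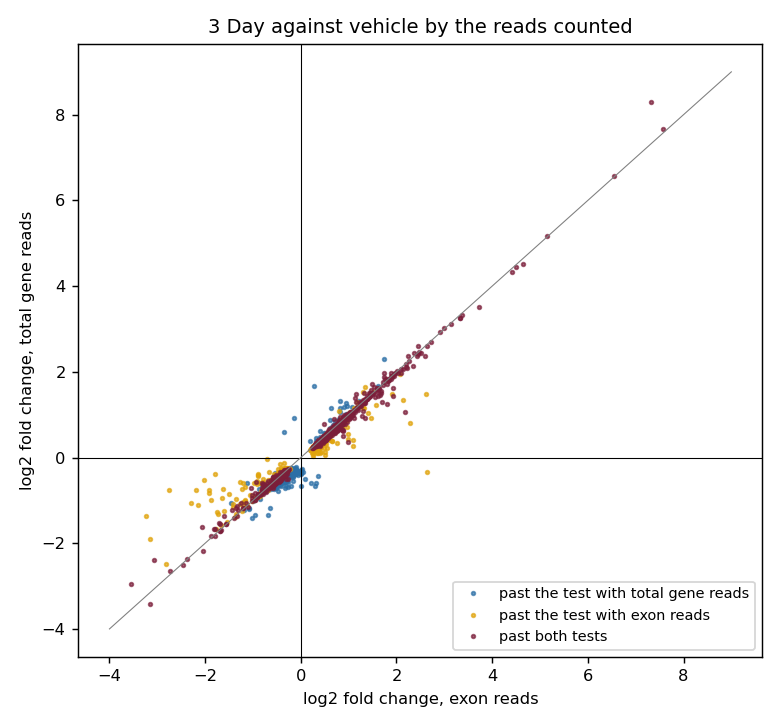
Log2 fold change of 3 Day against vehicle with exon reads (horizontal) and total gene reads (vertical), 1 point per gene past either test that was tested with both, with the gray line marking equal values. The 761 genes past both tests (dark red) lie on the same side of 0 on both axes.

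The 3 dopamine libraries did not carry the change equally. Each gene's normalized reads in a 3 Day library were divided by the mean of the vehicle libraries and put on a log2 scale. Over the 541 genes that were higher, the median ratio was 0.48 in replicate 1 and 0.80 in each of replicates 2 and 3, so that replicate 1 held 25.0% of the summed ratio, replicate 2 37.1% and replicate 3 38.0%. Replicate 1 was the lowest of the 3 in 394 of these genes, yet lay above all vehicle libraries in 528. Over the 533 genes that were lower, the medians were -0.41, -0.55 and -0.48 and the shares 30.1%, 37.0% and 32.8%, so that the lower genes were the more even. With exon reads the shares for higher genes were 24.1%, 37.8% and 38.1%, and for lower genes 30.5%, 37.8% and 31.7%. These genes were called with the same libraries, so the ratios describe the calls and add no test. Over all 21690 genes tested with total gene reads, the order of the libraries was another. Genes more than 1 log2 unit from the vehicle mean numbered 2835 in replicate 1, 1417 in replicate 2 and 2086 in replicate 3. With exon reads they numbered 600, 799 and 845 of 16768, so that replicate 1 then had the fewest.

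**Figure D2:**
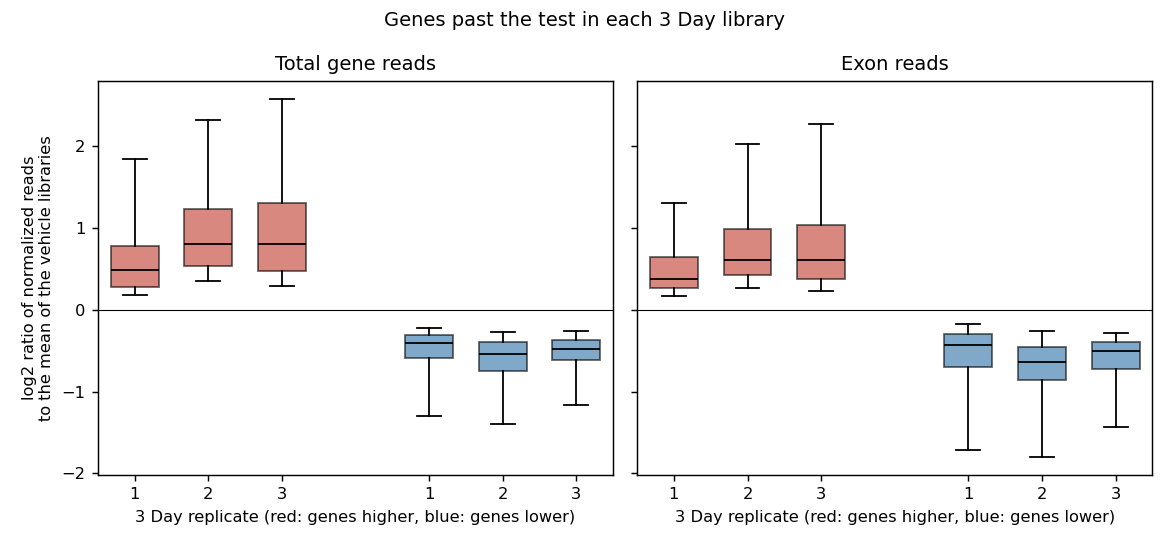
Log2 ratio of normalized reads in each 3 Day library to the vehicle mean, over genes called higher (red) and lower (blue), with total gene reads on the left and exon reads on the right. Boxes span the quartiles with the median as a line, and whiskers the 5th to 95th percentile. Replicate 1 sits closest to 0 in both directions.

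A library that took no part in the call gives a view that does not rest on itself, although the vehicle libraries were shared. Of the 877 genes called higher without 3 Day replicate 1 (total gene reads), 89.2% were also above the vehicle mean in replicate 1 and 75.8% above every vehicle library, where 33% of all genes tested were. Their median ratio in replicate 1 was 0.26, against 0.64 in replicates 2 and 3. Of the 650 genes called lower without it, 95.2% were below the vehicle mean in replicate 1 and 89.5% below every vehicle library (38.5% of all genes), with medians of -0.30 and -0.51. For the 145 genes called higher without replicate 2, 100% lay above every vehicle library in replicate 2, against 35.3% of all genes. Their median ratio was 1.08 in replicate 2 and 0.91 in replicates 1 and 3. For the 190 genes called higher without replicate 3, 99.5% did so in replicate 3, against 35.3%, with medians of 0.87 and 0.82. The sets of 145 and 190 genes were smaller than the 877 and had larger ratios in the libraries kept. Their percentages are therefore not on a like footing with those of replicate 1. The 74 and 118 genes called lower without replicates 2 and 3 lay below every vehicle library in 100% and 99.2% of cases (34.5% and 34.4% of all genes). With exon reads replicate 1 lay beyond every vehicle library in 80.3% of the 1100 genes called higher without it (34.4% of all genes) and in 80.1% of the 613 called lower (32.0%). For replicate 2 these values were 99.7% of 311 (36.7%) and 98.8% of 80 (35.0%), and for replicate 3 98.3% of 358 (34.0%) and 96.5% of 199 (34.1%). With a single 3 Day library against the 3 vehicle libraries, in a fit that takes the lone library to vary like the other groups, replicate 1 gave 20 genes, replicate 2 428 and replicate 3 288 (76, 722 and 505 with exon reads).

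Of 34 immediate early genes, 23 rose after 3 doses, and FOS and the EGR genes were among the most even across the 3 libraries. EGR1 (zinc finger transcription factor, chr5:138465479-138469303) was at 287, 301 and 260 TPM in 3 Day replicates 1 to 3 and at 26.9, 28.6 and 35.0 in the vehicle. All 3 dopamine libraries lay far above all vehicle libraries, and replicate 1 lay between the other two. The log2 fold change was 3.25 ± 0.19 (SE, n = 3 and 3, adjusted p = 1.03e-06 with edgeR). FOS (chr14:75278826-75282230), which pairs with JUN proteins in AP-1, was at 66.9, 71.7 and 67.0 TPM against 12.6, 12.8 and 13.4, a log2 fold change of 2.44 ± 0.12 (edgeR adjusted p = 1.98e-07). The groups did not overlap, and the 3 dopamine libraries lay close together. EGR2 (chr10:62811996-62919900) was at 8.18, 9.61 and 9.64 TPM against 0.447, 0.377 and 0.312, the largest fold change of the immediate early genes (4.52 ± 0.31, edgeR adjusted p = 4.89e-06). ARC, a postsynaptic protein that shuttles AMPA receptors, was at 29.8, 26.9 and 28.3 TPM against 9.17, 8.26 and 8.74 (1.72 ± 0.21, edgeR adjusted p = 0.000824). For ARC replicate 1 was the highest in TPM but the lowest in log2 ratio of normalized reads (1.65, 1.73 and 1.72), so that the order of the 3 depended on the scale. EGR1, EGR2 and FOS also passed the test with replicate 1 as the lone dopamine library.

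With total gene reads 23 of the 34 were higher, 1 was lower and 10 did not pass, against 2.49% and 2.46% of all genes tested. Their median log2 fold change was 1.34, where that of all genes was 0.00. EGR3 rose as evenly (12.5, 12.5 and 8.93 TPM against 1.69, 1.93 and 2.23). FOSB, the AP-1 member that accumulates as a stable splice form on repeated stimulation of the striatum, stayed low (1.97, 2.92 and 2.10 TPM against 0.445, 0.400 and 0.777), with a log2 fold change of 2.19 ± 0.42 (edgeR adjusted p = 0.0115). JUNB was less even, at 52.2, 84.3 and 87.8 TPM against 30.9, 25.7 and 27.8 (1.5 ± 0.28, edgeR adjusted p = 0.0102), with replicate 1 lowest but still above all vehicle libraries. The NR4A nuclear receptors differed from each other. NR4A2 was the 1 member that fell (8.88, 6.09 and 5.22 TPM against 14.5, 14.4 and 11.5), while NR4A1 was at 10.1, 9.47 and 10.9 TPM against 8.09, 7.77 and 6.66 and passed the test with exon reads (edgeR adjusted p = 0.0370) but not with total gene reads (edgeR adjusted p = 0.0563). Members of the list that did not pass included JUN, JUND and IER5, with log2 fold changes of 0.20, 0.06 and 0.17. The count of higher members was 26 without 3 Day replicate 1, 13 without replicate 2 and 18 without replicate 3. It was 14, 13 and 18 without vehicle replicates 1, 2 and 3, and 8 with 3 Day replicate 1 alone.

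Genes listed as ERK feedback genes rose with them, by a smaller median amount and evenly. Of 20 tested, 11 were higher and 0 lower, against 2.49% and 2.46% of all genes tested. The median log2 fold change was 0.47. DUSP6, a phosphatase of ERK, was at 117, 99.1 and 91.7 TPM against 40.6, 39.3 and 48.7 (1.31 ± 0.12, edgeR adjusted p = 8.73e-05), with replicate 1 the highest. DUSP5 (log2 fold change 1.51), ETV4 (0.94), a transcription factor induced by ERK, and IER3 (2.07) also rose. Among 20 activity-induced synaptic and secreted genes, 7 were higher and 0 lower. The secreted neuropeptide precursor VGF was at 372, 397 and 391 TPM against 151, 171 and 178 (1.29 ± 0.11, edgeR adjusted p = 4.39e-05). RGS4, which shortens G protein signals, was at 41.5, 31.7 and 31.9 TPM against 13.5, 13.6 and 15.8, and CRH rose by 1.16 on the log2 scale. BDNF (0.18), NPTX2 (0.11) and HOMER1 (0.03) did not pass. Without vehicle replicate 1 or 2, 4 of the 7 passed, and 4 and 5 did without 3 Day replicates 2 and 3.

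Contractile genes and other listed SRF and actin targets rose as widely but were carried mostly by replicates 2 and 3. Of 26 SRF and actin targets tested, 20 were higher and 0 lower, with a median log2 fold change of 0.81. For the immediate early genes these counts were 23 of 34 and 1, with CCN1 and CCN2 in both lists. Over all genes tested 2.49% were higher and 2.46% lower. ACTG2, smooth muscle gamma actin (chr2:73892314-73919865), was at 4.04, 17.1 and 35.5 TPM in 3 Day replicates 1 to 3 and at 0.648, 0.583 and 1.58 in the vehicle. The groups did not overlap, which the rule that chose this gene required, but replicate 1 was far below the other 2. The log2 fold change was 4.33 ± 0.67 (edgeR adjusted p = 0.00405) and the log2 ratios of the 3 libraries to the vehicle were 1.91, 4.21 and 5.09. TAGLN, an actin-binding protein of smooth muscle, was at 54.4, 180 and 247 TPM against 27.0, 24.5 and 41.1 (2.46 ± 0.48, edgeR adjusted p = 0.0130), and ACTA2 at 92.6, 222 and 257 TPM against 35.0, 31.5 and 47.5. Both showed the order of ACTG2, with replicate 1 nearest the vehicle. MYL9, CNN1, TPM1 and MYH9 rose as well, by 1.76, 1.82, 1.28 and 1.01 on the log2 scale. TPM2 (0.81) and TAGLN2 (0.44) did not pass, and both were below the vehicle mean in replicate 1.

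**Figure D3:**
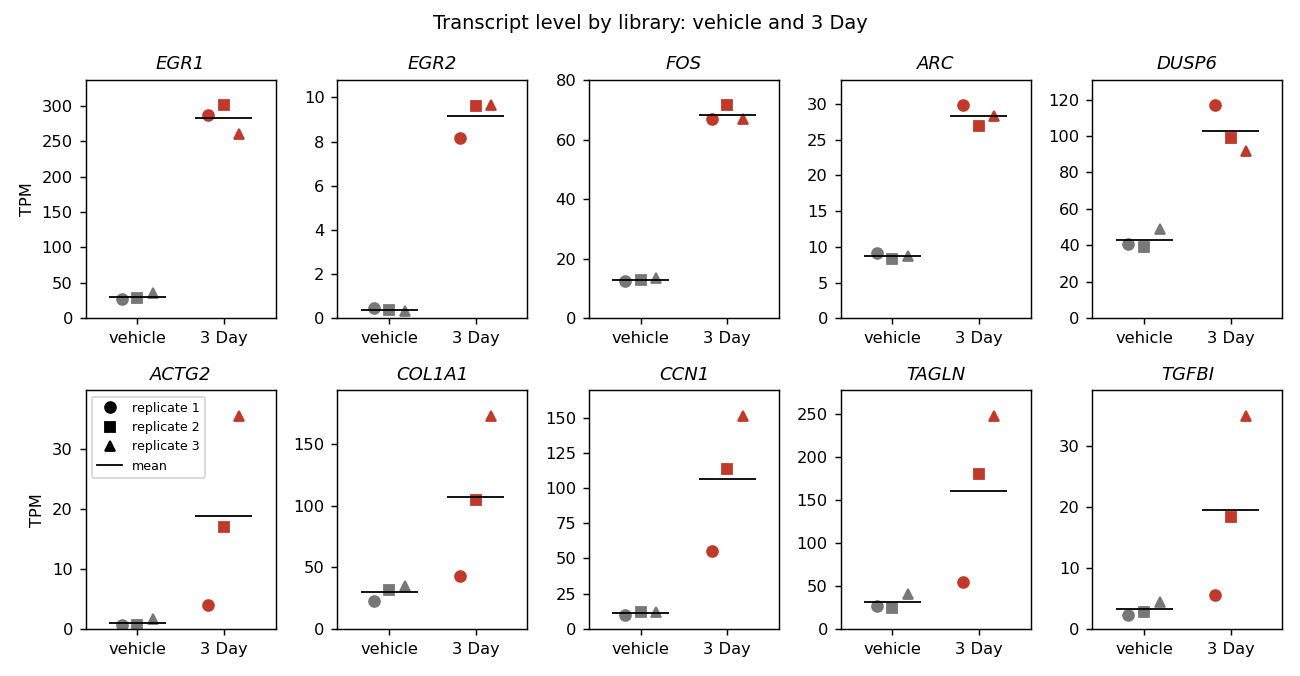
TPM of 10 genes in the 3 vehicle libraries (gray) and the 3 libraries with 3 daily doses (red), with the marker giving the replicate number and the line the mean, each axis starting at 0. Replicate 1 (circles) is level with the others for EGR1, FOS, ARC and DUSP6 in the upper row and the lowest of the 3 for ACTG2, COL1A1, CCN1, TAGLN and TGFBI in the lower row.

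The split between these gene groups can be put as counts. The log2 ratio of replicate 1 was under 0.5 of the mean of replicates 2 and 3 in 17 of the 20 SRF and actin targets that rose, in 4 of the 23 immediate early genes and in 0 of the 11 ERK feedback genes, where 201 of all 541 higher genes (37.1%) were so. Replicate 1 was the lowest in 20 of 20, 20 of 23 and 5 of 11, against 394 of 541 (72.8%). The bound of 0.5 was chosen after the values had been seen. The 4 immediate early genes were FOSL1, PER1, FOSL2 and JUNB. The 7 with replicate 1 at 0.8 or more of that mean were FOS, ARC, KLF4, EGR1, EGR2, EGR3 and EGR4. At that bound the early genes did not stand out, since 190 of all 541 higher genes reached it. It was reached by 8 of the 11 ERK feedback genes and 0 of the 20 SRF and actin targets. The median fraction was 0.67 for early genes, 0.90 for ERK feedback genes, 0.32 for SRF and actin targets and 0.63 for all higher genes. CCN1, a secreted matrix protein (chr1:85580761-85583950), was at 55.2, 114 and 151 TPM against 10.1, 12.1 and 11.8 (3.27 ± 0.36, edgeR adjusted p = 0.000507). CCN2 was at 82.3, 208 and 260 TPM against 20.4, 20.3 and 26.1 (3.12 ± 0.37, edgeR adjusted p = 0.000798). ANKRD1, a muscle ankyrin repeat protein, was at 1.94, 7.26 and 10.9 TPM against 0.277, 0.281 and 1.02 (3.50 ± 0.62, edgeR adjusted p = 0.00846). None of these 3 genes overlapped between the groups, which the naming rule required of CCN1 and ANKRD1. Replicate 1 was the lowest dopamine library for each. Of 25 YAP and TEAD targets, a list written after the values had been seen, 9 were higher and 0 lower, AMOTL2 and LATS2 among them. The shares of all genes tested were 2.49% and 2.46%. Replicate 1 was the lowest in 9 of 9. Its log2 ratio was under 0.5 of the mean of the others in 4 of 9 (44.4%), nearer to the 37.1% of all higher genes than to the SRF and actin targets. The count of higher targets was 4 without vehicle replicate 1 or 2, 6 without 3 Day replicate 2 and 13 without 3 Day replicate 1. Without 3 Day replicate 1, 25 SRF and actin targets passed, against 9 without replicate 2, 10 without replicate 3, and 6, 7 and 14 without vehicle replicates 1, 2 and 3.

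Collagens, matrix glycoproteins and crosslinking genes that rose were, like the contractile genes, carried mostly by replicates 2 and 3, while the matrix metalloproteinases were not. Of 36 collagens tested 8 were higher, and of 56 matrix glycoproteins and proteoglycans 18. Of 37 matrix proteases and inhibitors 12 were higher, and of 22 genes of crosslinking and collagen processing 5, with 0 lower in each list. Over all genes tested 2.49% were higher and 2.46% lower. COL1A1 was at 42.9, 104 and 173 TPM against 22.3, 31.8 and 34.9 (1.94 ± 0.44, edgeR adjusted p = 0.0239). COL4A1, COL13A1 and COL26A1 rose by 0.90, 1.48 and 1.11 on the log2 scale. MMP1, interstitial collagenase, was at 5.10, 5.74 and 5.08 TPM against 0.279, 0.141 and 0 (5.17 ± 0.61, edgeR adjusted p = 0.000771), level across the dopamine libraries. MMP3 was at 23.3, 20.8 and 11.5 TPM against 0.888, 0.300 and 1.40 (4.44 ± 0.75, edgeR adjusted p = 0.00683), with replicate 1 the highest, and MMP10 at 6.39, 7.47 and 7.90 against 1.25, 1.11 and 2.62. SPP1, the secreted glycoprotein osteopontin, was as level, at 48.4, 45.0 and 48.6 TPM against 12.9, 13.3 and 16.7. The collagen crosslinkers LOXL1 (1.13) and LOX (0.84) rose too, and so did SERPINH1 (0.75) and P4HB (0.55), which fold and hydroxylate collagen chains. The log2 ratio of replicate 1 was under 0.5 of the other libraries' mean in 6 of the 8 collagens (75.0%) and 12 of the 18 glycoproteins (66.7%). It was so in 6 of the 12 proteases and inhibitors (50.0%) and 4 of the 5 crosslinking genes (80.0%). These shares compare with 37.1% of all higher genes and 85.0% of the SRF and actin targets. Proteases and inhibitors were thus nearer to all higher genes. Collagens gave 2 without vehicle replicate 1, vehicle replicate 2, 3 Day replicate 2 or 3 Day replicate 3, 15 without 3 Day replicate 1 and 14 without either 5 Day library. Glycoproteins gave 4 and 5 without vehicle replicates 1 and 2 and 7 without 3 Day replicate 2 or 3, and proteases and inhibitors gave 5 without vehicle replicate 1 or 2, 6 without 3 Day replicate 2 and 7 without 3 Day replicate 3. MMP1, MMP3 and MMP10 overlap the pseudogene WTAPP1 on the opposite strand, and the strand used in counting was not given in the sources used here.

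TGF-beta and BMP genes rose in 10 of 41 and fell in 0, against 2.49% and 2.46% of all genes tested. The count of higher genes was 4 without vehicle replicate 1 or 2, 5 without 3 Day replicate 2 and 6 without 3 Day replicate 3. TGFBI, a matrix protein induced by TGF-beta, was at 5.48, 18.3 and 34.9 TPM against 2.28, 2.81 and 4.47 (2.70 ± 0.51, edgeR adjusted p = 0.0114), the ligand TGFB3 at 19.4, 41.2 and 42.4 against 11.9, 14.0 and 14.0, and LTBP2, a latent TGF-beta binding protein, at 3.19, 7.64 and 13.3 against 2.30, 3.15 and 3.04. Replicate 1 was the lowest dopamine library for each, and close to the vehicle for LTBP2. Markers of mesenchymal and mural cells, among which TAGLN, ACTA2 and COL1A1 are counted, rose in 7 of 15 and summed to 500 to 1067 TPM against 319 to 408 in the vehicle. Only 1 of the 15 passed without vehicle replicate 1, vehicle replicate 2, 3 Day replicate 2 or 3 Day replicate 3. PRRX1 and FOXC1 also passed, but THY1 (-0.05), DCN (0.02) and POSTN (0.09) were near 0 in log2 fold change. Whether more cells or more RNA per cell lay behind any such level cannot be told apart in bulk RNA.

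**Figure D4:**
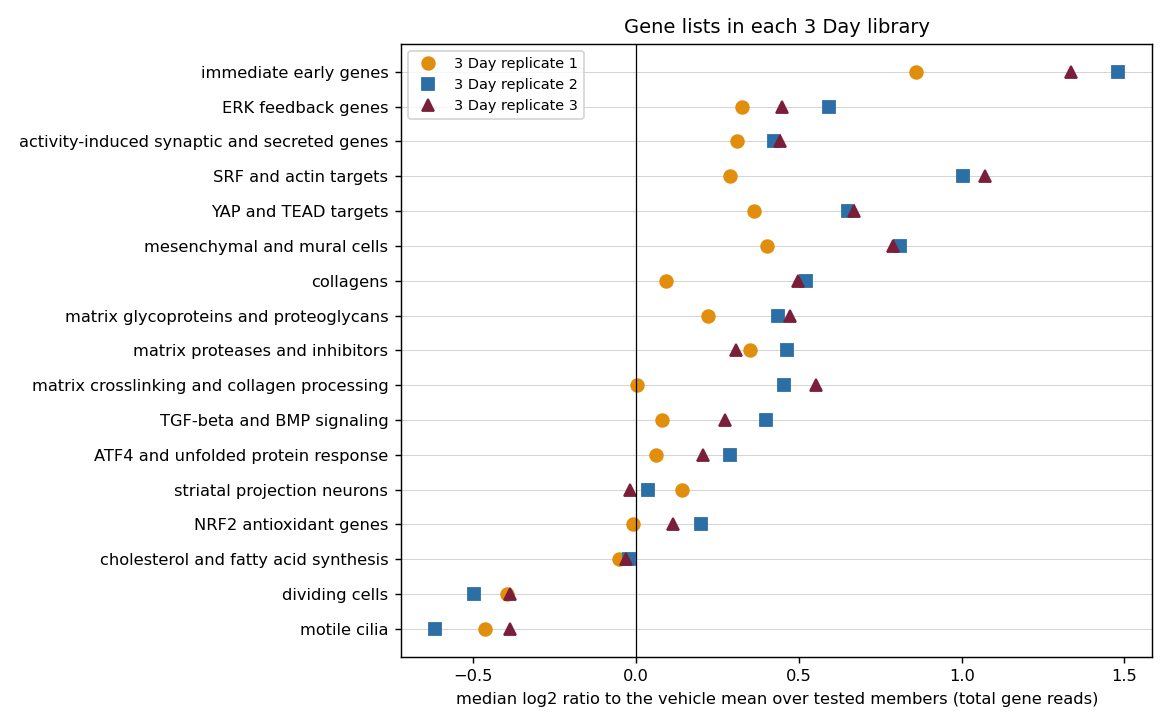
Median log2 ratio to the vehicle mean over the tested members of 17 gene lists, for 3 Day replicates 1 (circles), 2 (squares) and 3 (triangles), with total gene reads. For SRF and actin targets replicate 1 is at 0.29 and the others at 1.00 and 1.07, while dividing cells are at -0.40, -0.50 and -0.39.

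Adhesion, guidance and Wnt genes moved in part, where 2.49% of all genes tested were higher and 2.46% lower. Of 54 cell adhesion molecules 11 were higher and 1 lower, with CD44 (1.28), CNTN6 (1.25), CDH1 (1.32) and ITGA11 (2.10) leading, of which CNTN6 and CDH1 did not pass with exon reads. ITGA11, a collagen receptor, was at 0.544, 2.33 and 4.91 TPM against 0.556, 0.435 and 0.820, so that replicate 1 lay within the vehicle range and the call rested on the other libraries. Of 51 axon guidance genes 7 were higher and 0 lower, led by EPHA2 (1.04), SEMA3C (0.63), SLIT3 (0.57) and the semaphorin receptor NRP1 (0.51). Of 51 Wnt genes 5 were higher and 1 lower, with the antagonist DKK2 (1.44), FZD6 (0.64) and WNT8B (0.61) up and the receptor FZD8 down (-0.98). Notch targets gave 2 higher and 1 lower of 17, with HES1, a repressor of neurogenesis, at 191, 183 and 180 TPM against 112, 108 and 110 and JAG1 at 0.78, while HEY2 fell by 0.83. NF-kappaB targets gave 2 of 10, the chemokine CCL2 (42.1, 85.7 and 92.1 TPM against 13.4, 16.1 and 19.7) and the cytokine LIF (1.84).

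Genes of the unfolded protein response rose in part, while other stress and metabolic lists gave few calls. Of 30 ATF4 and unfolded protein response genes 6 were higher and 0 lower (9 and 0 with exon reads), against 2.49% and 2.46% of all genes tested, and 24 of 30 had a positive log2 fold change, with the ER chaperone HSPA5 at 442, 450 and 494 TPM against 339, 335 and 362 (0.49 ± 0.09, edgeR adjusted p = 0.00800) and DNAJC3, PDIA4 and HYOU1 at 0.47, 0.39 and 0.39. Of 26 NRF2 antioxidant genes 0 passed with total gene reads and 2 with exon reads, and the ferritins FTL and FTH1 were at 0.09 and 0.20. For p53 targets 3 of 25 were higher (GADD45B 2.43, GADD45A 0.74, PLK3 0.53) and 1 lower (PPM1D -0.37). Of 20 heat shock genes CRYAB rose (1.83), while CHORDC1 (-0.50) and DNAJB4 (-0.45) fell. Glycolysis gave 2 higher and 1 lower of 24 (SLC2A3 0.64, PKM 0.44, LDHA -0.41), and HIF targets 3 and 2 of 28, with BHLHE40 (1.36) up and VEGFA (-0.81) and BNIP3 (-0.79) down. Of the circadian clock genes 2 of 18 were higher, PER1 (0.42) and BHLHE40. Metallothioneins and zinc transport gave 1 of 5, SLC30A1 (0.43), and interferon-stimulated genes 1 lower of 17, ISG15, which did not move with exon reads (0.00 against -0.66). Cholesterol and fatty acid synthesis (34 tested), mitochondrially encoded proteins (13) and ribosomal proteins (43) gave 0 in either direction with either kind of reads.

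Few dopamine receptor and striatal identity genes passed the test, although summed levels of striatal and GABAergic markers were lower, as were those of glutamatergic and interneuron markers. Over all genes tested 2.49% were higher and 2.46% lower with total gene reads, and 4.77% and 2.60% with exon reads. DRD1 was at 1.39, 0.682 and 0.401 TPM against 1.29, 1.03 and 0.285 in the vehicle, which overlapped throughout (-0.01 ± 0.75, edgeR adjusted p = 0.998). DRD2 was at 2.37, 4.45 and 3.77 TPM against 4.80, 5.26 and 6.21, lower in each dopamine library but not past the test (-0.62 ± 0.27, edgeR adjusted p = 0.198). PPP1R1B, which encodes DARPP-32, the phosphatase inhibitor that marks medium spiny neurons, was at 17.4, 21.8 and 21.9 TPM against 22.0, 24.9 and 23.4 (-0.10 ± 0.28, edgeR adjusted p = 0.876). Of 7 dopamine and adenosine receptors 0 passed with total gene reads, ADORA1 being at 0.09, and 1 of 7 passed with exon reads, DRD4 (0.87, edgeR adjusted p = 0.0433), and of 13 genes of dopamine handling 0 passed with total gene reads, with AKR1B1 at 0.33 (past the test with exon reads) and ALDH2 at 0.18. Of 14 striatal signaling proteins RASD2 was higher (0.79). Of 18 striatal markers 2 were lower, MEIS2 (-0.44) and BCL11B (-0.36), and their summed level was 176.7 to 205.5 TPM against 208.8 to 228 in the vehicle, with no overlap, while 9 of 18 had a positive log2 fold change. Of 12 genes of the DLX and GABAergic lineage 1 was lower and 0 higher. Only GAD1 had a positive log2 fold change (0.13, not past the test). The summed level was 234.7 to 262.3 TPM against 310 to 333, also with no overlap. Sums were lower without overlap for glutamatergic markers too (1210 to 1487 TPM against 1550 to 1762). The same held for interneuron markers (178.2 to 202.7 against 227.1 to 252.1). The sum of pan-neuronal markers overlapped (5069 to 6350 against 5569 to 5975). For single genes, 29.3% of all tested did not overlap between the groups in either direction.

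Channels and receptors gave few calls in number. Over all genes tested 2.49% were higher and 2.46% lower, so that 1 of 41 voltage-gated channels lay near the share of all genes. KCNA1, a voltage-gated potassium channel, rose by 1.38 on the log2 scale, as 1 of 41 voltage-gated channels. Of 25 glutamate receptors, GRIK4 (0.53) and GRIN3A (0.47) were higher and GRIN1 (-0.57) and GRM3 (-0.44) lower. GABRE (0.59) was 1 of 23 GABA genes. Cyclic AMP and CREB targets gave 2 higher (FOS and PER1) and 1 lower (NR4A2) of 20. Neurofilament genes NEFM (0.57) and NEFL (0.45) rose and RBFOX3 (-0.49) fell among 14 neuronal markers. Of 11 astrocyte markers 3 rose, S100B (0.78), GJA1 (0.54) and CD44, and of 11 progenitor markers HES1 (0.87), TNC (0.73) and NES (0.43) rose and SOX2 (-0.38) fell. EOMES fell (-0.79) among 9 glutamatergic markers, and among 10 choroid plexus and epithelial markers FOLR1 fell (-0.66) and CDH1 rose (1.32), with 6 of 10 positive. With total gene reads 0 of 5 passed in the interneuron list (CALB2 -0.33, SST -0.37), nor did any of 7 endothelial (CLDN5 -1.21, TEK 0.81, list median 0.84), 3 pluripotency (DPPA4 0.21, TDGF1 1.03) or 2 microglial genes (PTPRC -0.38, CSF1R 0.47). With exon reads 2 of 4 endothelial markers passed as higher, TEK (2.28) and KDR (1.17). Of the 8 endothelial markers listed, 5 were under 1 TPM in both groups. Their summed level was not higher, at 5.575 to 6.511 TPM against 5.765 to 9.981 in the vehicle.

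Genes of dividing cells fell. Of 24 tested, 10 were lower and 0 higher, against 2.46% and 2.49% of all genes tested. The median log2 fold change was -0.44. CDK1, the kinase of mitotic entry, was at 41.1, 27.9 and 32.4 TPM against 63.5, 59.9 and 51.3 (-0.73 ± 0.18, edgeR adjusted p = 0.0341). NUSAP1, BUB1 and CENPE, which act at the spindle and kinetochore, fell by 0.61, 0.59 and 0.59 on the log2 scale. The 3 dopamine libraries lay below all vehicle libraries for each of these genes, where 29.3% of all genes tested did not overlap in either direction. The median ratios of the list were -0.40, -0.50 and -0.39 in the 3 libraries. Replicate 1 was the least changed in 7 of the 10, against 281 of all 533 lower genes (52.7%). The count was 10 without 3 Day replicate 1, 0 without replicate 2, 1 without replicate 3, 0 without vehicle replicate 1 or 2, 1 without vehicle replicate 3 and 17 without either 5 Day library.

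Some of the genes that fell most have been tied to cilia. Among the 8 largest decreases, FAM166B, a ciliary microtubule protein, was at 1.94, 0.668 and 1.41 TPM against 11.2, 10.5 and 7.33 (-2.65 ± 0.44, edgeR adjusted p = 0.00604). WDR38, at 2.98, 1.76 and 1.63 TPM against 9.5, 10.4 and 5.6, TCTEX1D1 (-2.18) and CROCC2 (-1.82), a relative of the ciliary rootlet protein, were also found. The absence of overlap between the groups was part of the rule that chose these 4 genes. A list of 100 motile cilia genes, written after these values had been seen, holds WDR38 but not the other 3. Of 98 tested 16 were lower and 0 higher, with a median log2 fold change of -0.49 (23 of 96 lower with exon reads). Over all genes tested 2.46% were lower with total gene reads and 2.60% with exon reads. TPPP3, a tubulin-binding protein, was at 17.6, 16.6 and 21.3 TPM against 70.7, 73.7 and 47.9 (-1.72 ± 0.38, edgeR adjusted p = 0.0218), and KIF19, CDC20B, CFAP73 and DRC1 fell by 1.68, 1.66, 1.55 and 1.13 on the log2 scale. FOXJ1, the master transcription factor of motile cilia, was at 53.7, 57.0 and 75.4 TPM against 99.0, 116 and 77.9 and did not pass (-0.57, edgeR adjusted p = 0.190). The ratio of replicate 1 was under 0.5 of the other libraries' mean in 0 of the 16, where it was so in 43 of all 533 lower genes (8.07%). Replicate 1 was the least changed in 5 of the 16, against 281 of the 533 (52.7%). The count was 12 without 3 Day replicate 1, 1 without replicate 2, 0 without replicate 3, 0 without vehicle replicate 1 or 2, 16 without vehicle replicate 3 and 29 without either 5 Day library.

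The remaining genes with the largest changes need more care. TRPV4, a calcium-permeable channel, was at 0.0787, 0.244 and 0.0860 TPM against 1.75, 1.48 and 0.688. The histone gene H4C14 was at 1.42, 3.26 and 2.93 against 14.2, 21.6 and 9.35. Both were lower, and the absence of overlap was part of the rule that chose them. AP003419.1 had 23, 15 and 21 exon reads in the dopamine libraries and 0 in each vehicle library, at least 7.004-fold higher when the vehicle is set at 3 reads per library. Its annotated span overlaps POLD4 and CLCF1 on the same strand, so reads could have been split between them. AC005520.3 had 5, 0 and 0 exon reads against 19, 9 and 27 and overlaps PTGR2 and ZNF410, and AL669918.1 had 4, 0 and 0 against 22, 10 and 27 and overlaps HLA-DOB and TAP2, so both are uncertain likewise.

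For each dopamine library, genes were also named where its log2 ratio most exceeded the mean of the other libraries. A gene named for 1 library could be as far from the vehicle in another. C6orf141, named for replicate 2, was at 2.62 there and at 2.70 in replicate 3. In replicate 1 these were H4C14 (log2 ratio -3.26 against -2.04 and -2.05), the calcium-binding CPNE6 (-1.51 against -0.81 and -0.75) and H2AC18. H2AC18, a histone gene with a near-identical copy, had 21, 50 and 0 exon reads in the dopamine libraries and 0 in each vehicle library, and it was also first in replicate 2, followed by C6orf141 (0.33, 2.62 and 2.70) and AL669918.1 (-1.27, -3.46 and -3.46). In replicate 3 they were ACTG2, ITGA11 and TGFBI, 3 genes of contraction and matrix. The genes that replicate 3 exceeded in were thus ones described above, with excesses over the mean of the other libraries of 2.03, 1.80 and 1.79 on the log2 scale.

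To place the third dose in the time course, 3 Day was compared with 2 Day and 4 Day directly, without the vehicle. Against 2 Day 207 of 21690 genes differed with total gene reads (0.954%), 123 higher in 3 Day (0.567%) and 84 lower (0.387%), and 648 of 16768 with exon reads (3.86%), 345 higher (2.06%) and 303 lower (1.81%). The ribosomal RNA-like share differed between the groups, at 0.947% to 1.14% in 2 Day and 2.25% to 2.78% in 3 Day without overlap. It was 2.75% to 3.51% in 4 Day, but 1.41% to 1.47% in 5 Day and 1.07% to 1.38% in the vehicle. The share thus did not rise steadily with the number of doses. Its part in these counts was not tested. ACTG2 was at 2.07, 2.87 and 1.28 TPM on day 2 against 4.04, 17.1 and 35.5 on day 3 (3.01 ± 0.61, edgeR adjusted p = 0.0377). ANKRD1 was at 0.380, 1.08 and 0.309 against 1.94, 7.26 and 10.9 (3.24 ± 0.62, edgeR adjusted p = 0.0294). Of the SRF and actin targets 5 were higher than on day 2 with total gene reads and 11 with exon reads. MAFA, a basic leucine zipper factor, was at 4.92, 2.10 and 4.22 TPM on day 2 and 22.3, 33.9 and 28.3 on day 3 (2.89 ± 0.53, edgeR adjusted p = 0.0267), and at 7.97, 13.2 and 15.1 in the vehicle.

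Lower on day 3 than on day 2 were FAM166B (12.1, 11.4 and 6.02 TPM on day 2, -2.89 ± 0.45, edgeR adjusted p = 0.0196), the tight junction gene CLDN5 (8.66, 18.1 and 8.83 against 2.24, 2.05 and 3.30 TPM, -2.34 ± 0.47, edgeR adjusted p = 0.0376) and Z83844.1, whose span overlaps NOL12 and TRIOBP on the same strand. Of the motile cilia genes 12 were lower on day 3 with total gene reads and 31 with exon reads (0.387% and 1.81% of all genes). In contrast, EGR1 stood at 212, 237 and 158 TPM on day 2, and its difference of 0.41 ± 0.17 on the log2 scale did not pass (edgeR adjusted p = 0.277), nor did that of FOS (0.02 ± 0.11, edgeR adjusted p = 0.982). Of the immediate early genes 1 was higher and 1 lower. The 207 calls fell to 0 without 3 Day replicate 2, 3 Day replicate 3 or 2 Day replicate 2, to 5 without 2 Day replicate 3 and to 114, 91 and 117 without vehicle replicates 1, 2 and 3, and were 421 without 3 Day replicate 1. They were 120 and 121 without 4 Day replicates 1 and 3, and 560 and 494 without 5 Day replicates 2 and 3.

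**Figure D5:**
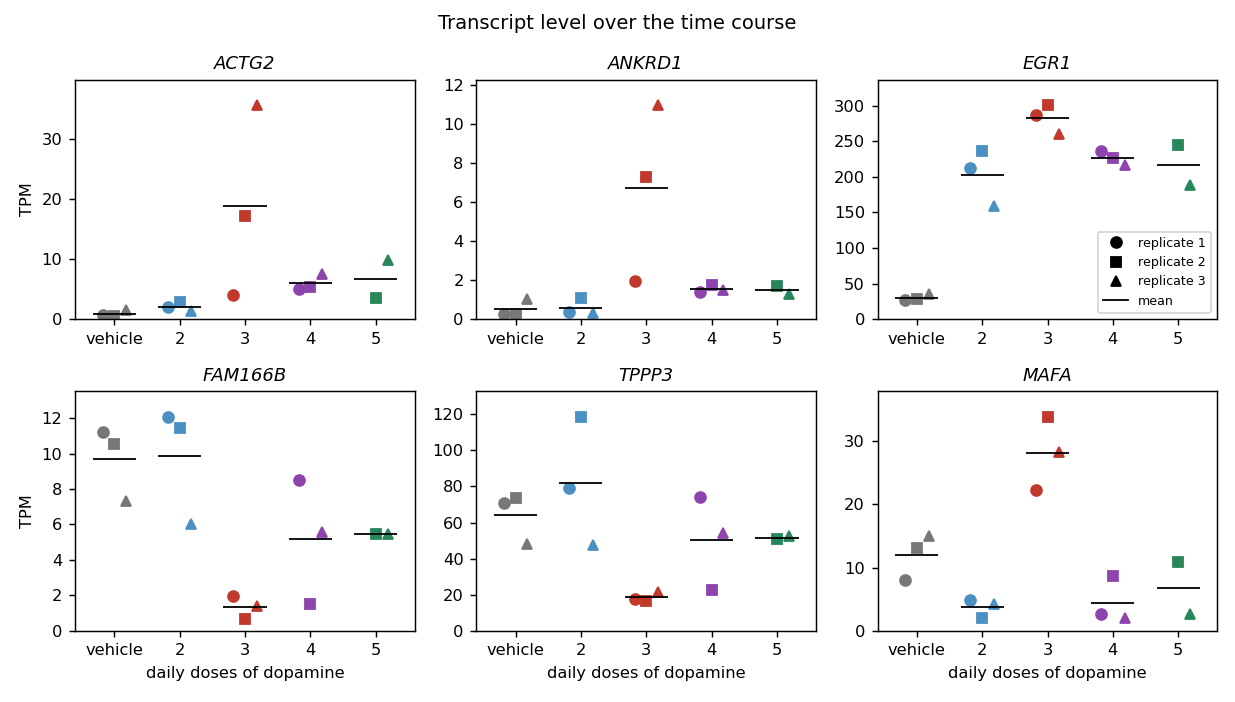
TPM of 6 genes in the vehicle and after 2, 3, 4 and 5 daily doses, 1 point per library, with the marker giving the replicate number and the line the group mean. ACTG2 and ANKRD1 reach 35.5 and 10.9 TPM in 3 Day replicate 3 and stay at or under 9.78 and 1.75 TPM in every library of the other groups, and FAM166B and TPPP3 are low in all 3 Day libraries.

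Against 4 Day, edgeR called 0 of 21690 genes with total gene reads, where 2258 had an unadjusted p under 0.05 and DESeq2's test called 229. With exon reads 67 of 16768 differed (0.400%), 43 higher in 3 Day (0.256%) and 24 lower (0.143%). MAFA was among them (2.61, 8.73 and 2.01 TPM on day 4, 2.73 ± 0.50, edgeR adjusted p = 0.0398 with exon reads). ACTG2, at 5.09, 5.29 and 7.52 TPM on day 4, did not pass (1.72 ± 0.53 with exon reads, edgeR adjusted p = 0.149). FAM166B did not pass either, with 4 Day replicate 2 at 1.52 TPM and the other 4 Day libraries at 8.49 and 5.59. Without 3 Day replicate 1 the count with total gene reads was 193, it was 12 without 4 Day replicate 2, and it was 67 and 68 without 5 Day replicates 2 and 3.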

How the data were processed

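Per the study's methods, the authors trimmed reads and mapped them to GRCh38 with CLC Genomics Workbench, and the deposited tables, with 60676 genes each, hold read counts per gene (exon reads, and total gene reads as the sum of exon and intron reads) and TPM values that the authors computed from exon reads and exon length. Strand and the sequencing provider of each library are not given in the sources used here. The 14 time course libraries (5 Day replicate 1 was not analysed here) were fitted together in edgeR 4.0.16 (R 4.3.3) by group, after TMM scaling of the genes kept by filterByExpr (a minimum count of 10 and a minimum total of 15), with the quasi-likelihood test and Benjamini-Hochberg adjustment. Standard errors (SE) were derived from each log2 fold change and its F statistic. Per-library ratios compared normalized reads in a 3 Day library with the vehicle mean. DESeq2 1.42.0, other filters and scalings, left-out libraries and a replicate block were tried as alternatives, and the fitting was tested on simulated data. The members, gene lists and tests were chosen with earlier results of these data known. Genes were named by rule. The rule took the 8 with the largest change in each direction among protein-coding genes past both tests. A mean TPM of at least 1 and no overlap were also required of these. It further took 9 genes always and up to 4 per list by size of change (or the 2 most abundant where none passed). It added 3 per direction in the direct comparisons and, for each 3 Day library, 3 by excess over the mean of the other libraries. Genes given outside this rule (EGR3, EGR4, MAFF, ZFP36, FOSL1, FOSL2, KLF4, MYH9, MYL9, CNN1, TPM1, AMOTL2, LATS2, CFAP73, DRC1, PRRX1, FOXJ1, TTR, GAD1, KDR and members named as not passing) were chosen after their values were seen. No pair of libraries was identical. Some members of the gene lists are not reported here by name.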

Additional observations from a re-analysis of the deposited data

Results flagged for a closer look

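The following results stand out because 3 Day differed from another dopamine group when the groups were tested against each other directly (edgeR's quasi-likelihood test). With total gene reads, 207 genes differed between 3 Day and 2 Day, and with exon reads 67 differed between 3 Day and 4 Day. In log2 fold change against 2 Day, ACTG2 was 3.01 higher, ANKRD1 3.24 higher and MAFA 2.89 higher. FAM166B (-2.89), CLDN5 (-2.34) and Z83844.1 (-3.11) were lower. All of the genes named here lacked overlap between 3 Day and 2 Day, which the rule that chose them required. ACTG2 and ANKRD1 were lowest in replicate 1 among the 3 Day libraries. Z83844.1 had 1, 0 and 0 exon reads in the 3 Day libraries.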

How the results depend on the processing

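Counts of genes past the test moved with the setting. Against the vehicle, 180 genes (total gene reads) and 227 (exon reads) passed when a mean TPM of at least 1 and a log2 change of 1 or more were also required, and 1675 and 1920 with no filter on low counts. A single 3 Day library gave 20 and 76 (replicate 1), 428 and 722 (replicate 2) or 288 and 505 (replicate 3). Leaving out each library in turn gave 167 to 2260 (total) and 370 to 1713 (exon). Against 2 Day (207), the fold and TPM requirement gave 69, no filter 502, at least 10 reads in every library 395, only the 2 groups 97, DESeq2 722, exon reads 648, exon reads with only the 2 groups 420 (chosen after seeing the data), and left-out libraries 0 to 560. Against 4 Day (0), the same settings gave 152 (no filter), 12 (at least 10 reads), 229 (DESeq2), 67 (exon reads), 65 (exon reads, only the 2 groups, chosen after seeing the data) and 0 to 193 (left-out libraries). The cause of these shifts was not tested. The residual correlations of same-numbered libraries were -0.28, -0.08 and -0.06 between 3 Day and vehicle, 0.32, 0.32 and -0.10 with 2 Day, and -0.24, -0.33 and 0.04 with 4 Day, so that in no comparison did every pair pass 0.1 and the numbers were not taken to pair the samples. With the replicate block the counts were 810 and 1095 against the vehicle, 83 against 2 Day and 0 against 4 Day. Over 33 named genes, 1377 of 1638 alternative values kept their direction and side of the threshold, 231 fell short of it, 29 newly passed it and 1 turned: ITGA11 with exon reads and only 3 Day replicate 1 (-0.092).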
